A study of Mus musculus with 18 samples.

Results

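The fibroblast growth factor (FGF) system of adipose tissue was described through 10 genes. They encode the receptors Fgfr1, Fgfr2, Fgfr3 and Fgfr4, the receptor-like protein Fgfrl1, the klotho co-receptors Klb and Kl, and the ligands Fgf1, Fgf10 and Fgf21. They were chosen by symbol, and all 10 were listed in each of the 18 samples, among 45151 symbols that all files held. The samples came from wild-type male C57BL/6J mice aged 16 weeks on regular chow. There were 6 samples of adipocytes from inguinal white fat (iWAT), 6 of adipocytes from epididymal white fat (eWAT) and 6 of brown fat (BAT). The white adipocytes had been freed with collagenase and floated, whereas BAT was whole tissue, so depot and preparation cannot be told apart in any comparison with BAT. The labels do not say how many mice or pools stand behind the samples, and p-values measure the spread between these samples only.

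FGFs signal through receptor tyrosine kinases that activate the Ras-ERK pathway. Most FGFs, such as FGF1 and FGF10, act locally and bind receptor together with heparan sulfate. FGF21 and the other endocrine FGFs bind heparan sulfate weakly and need a klotho protein beside the receptor. In adipocytes the pair formed by FGFR1 and beta-klotho, the product of Klb, is known as the receptor of FGF21. FGF10 is known for its part in the development of white adipose tissue, and FGF1 is a target of PPARG in fat.

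The number of reads behind the RPKM values (reads scaled to the length of the row and to the sample's reads) was between 22929576 and 34512470 per sample. A row is a gene with merged exons in iWAT and BAT and a single transcript in eWAT. For Fgfr1 the merged row was 1.96 times as long as the transcript used in eWAT, for Fgfr2 2.03 times, for Fgfr3 1.64 times, for Fgf1 1.23 times and for Klb 1.17 times. A level per length therefore reads high in eWAT, and a level per read reads low there, and the fold changes of eWAT are given with the row length and without it. The sum of 6 adipocyte markers (Adipoq, Plin1 and others) was 3125 to 6962 RPKM in the white samples and 885 to 1137 in BAT. The sum of 6 brown adipocyte markers (Ucp1, Cidea and others) was 2049 to 2642 RPKM in BAT and no more than 32.5 in iWAT or 7.71 in eWAT. The eWAT sample 15 had a summed level of 8 macrophage markers, none at 0 reads, of 2240 RPKM against 154 to 520 in the other eWAT samples, and the BAT sample 12 had a summed skeletal muscle level of 1379 RPKM against a median of 26.7.

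Fgf10, Fgfr1 and Fgfrl1 were the members whose iWAT and eWAT samples all lay above every BAT sample per length and per read. For these members the sequence around the start of the gene was looked up, since they were higher together in both white depots. The RefSeq promoter table of build GRCm38.p6 held 2 of the 3, and Fgfr1 had no entry. Each sequence runs from 250 bases before to 50 bases after the start, on the plus strand. Capitals mark matches, on either strand, to the GC box GGGCGG, the CCAAT box, the TATA box TATAAA, the core AGGTCA of nuclear receptor elements and the E-box CACGTG. None of these motifs overlap one another in the sequences printed.
Fgfrl1 (chr5:108693979-108694278): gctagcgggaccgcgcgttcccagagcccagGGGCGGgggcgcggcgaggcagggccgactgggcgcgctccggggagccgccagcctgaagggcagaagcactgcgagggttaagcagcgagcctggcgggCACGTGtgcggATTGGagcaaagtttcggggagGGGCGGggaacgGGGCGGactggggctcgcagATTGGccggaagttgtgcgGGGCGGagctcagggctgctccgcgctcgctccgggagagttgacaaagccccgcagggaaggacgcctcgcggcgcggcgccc
Fgf10 (chr13:118714449-118714748): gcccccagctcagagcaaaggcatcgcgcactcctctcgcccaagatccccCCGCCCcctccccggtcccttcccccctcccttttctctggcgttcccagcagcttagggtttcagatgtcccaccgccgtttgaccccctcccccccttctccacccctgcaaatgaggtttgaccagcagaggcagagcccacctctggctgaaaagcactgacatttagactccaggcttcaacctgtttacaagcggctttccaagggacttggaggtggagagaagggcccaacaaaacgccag

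The Fgfrl1 sequence held 4 matches to the GC box, 2 to the CCAAT box and 1 to the E-box. The Fgf10 sequence held 1 match to the GC box and no other match. Among all 32851 promoters of the table, 35.7% held the GC box, 37.4% the CCAAT box, 7.15% the E-box, 16.3% the nuclear receptor core and 13.6% the TATA box. The Fgfrl1 promoter was rich in CG dinucleotides, with 37 in 300 bases, and 5.58% of all promoters held as many. The Fgf10 promoter held 10, close to the median of 7 over all promoters. A match to these letters is a description and does not show that a factor binds there.

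Of the 10 members, 8 had at least 10 reads in at least 6 samples and were tested. Fgfr4 and Kl did not. Between iWAT and BAT all 8 passed an adjusted p of 0.05 (edgeR's quasi-likelihood test, Benjamini-Hochberg over all rows), where 67.6% of all 19733 rows tested passed. Of the 8, 7 were higher in iWAT, as were 34% of all rows, and 1 (Fgfr3) was lower, as were 33.6% of all rows. The large share of all rows that differed means that a call by itself sets no member apart, and the sizes below carry the description. Scaling by library size without TMM factors raised the median difference of all rows from 0.01 to 0.27 on the log2 scale and changed the calls from 6711 higher and 6626 lower to 9107 higher (46.2%) and 4732 lower (24%). The direction of each of the 8 members was the same with and without TMM factors.

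**Figure D1:**
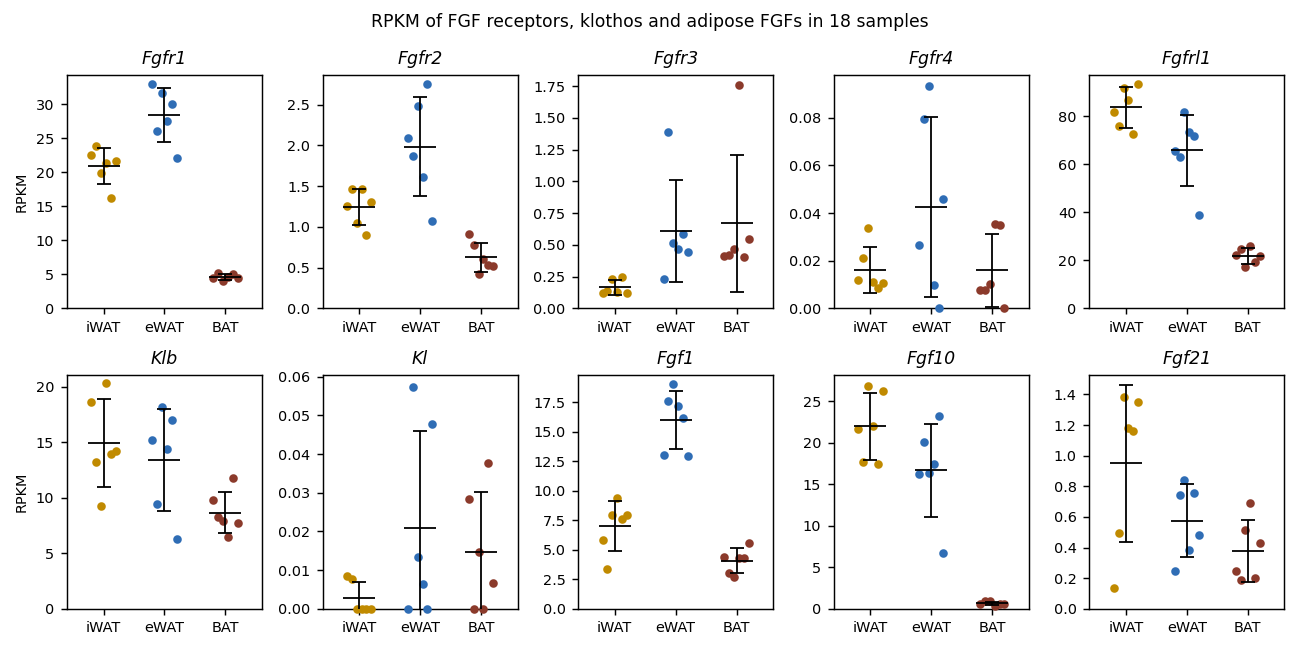
RPKM (vertical axes, each from 0) of the 10 genes in the 6 iWAT, 6 eWAT and 6 BAT samples; points are samples, horizontal bars are means and whiskers are the SD. Fgfr1, Fgfrl1 and Fgf10 in both white depots lie above all BAT samples, and 1 BAT and 1 eWAT sample stand far above the others for Fgfr3.

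Fgfr1, the main FGF receptor of adipocytes, lies on mm9 chromosome 8 (26624126 to 26686186). Its level was 16.2 RPKM in the lowest iWAT sample, 21.5 at the median and 23.9 in the highest. In BAT it was 4.02, 4.55 and 5.25 RPKM in the same order. In eWAT it was 22.1, 28.8 and 32.9 RPKM. The white and brown samples did not overlap. In these bulk samples, fewer cells that hold a message and less message per cell cannot be told apart. The log2 fold change of iWAT against BAT was 1.90 ± 0.10 (SE, n = 6 and 6, edgeR adjusted p = 1.57e-09), which is 3.74-fold. For eWAT against BAT it was 2.39 ± 0.11 per length (edgeR adjusted p = 5.68e-13), which is 5.23-fold. Without the row length it was 1.42 ± 0.11 (edgeR adjusted p = 1.02e-09), which is 2.67-fold. These values do not bound the difference. On the eWAT transcript with the highest RPKM it was 2.74 ± 0.11 per length (edgeR adjusted p = 4.47e-14). Between the white depots the sign turned with the row length. The log2 fold change of eWAT against iWAT was 0.39 ± 0.10 with it (edgeR adjusted p = 0.00406) and -0.58 ± 0.10 without it (edgeR adjusted p = 0.000555), and no order of iWAT and eWAT can be given for Fgfr1.

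Fgfr2 binds FGF10 in its epithelial splice form and is on chromosome 7 (137305965 to 137410322). It was read at a low level, with 0.906, 1.28 and 1.47 RPKM in the lowest, median and highest iWAT sample, 0.425, 0.566 and 0.908 in BAT, and 1.07, 1.98 and 2.75 in eWAT. The highest BAT sample just reached the lowest iWAT sample. iWAT exceeded BAT by a log2 fold change of 0.72 ± 0.19 (edgeR adjusted p = 0.00363). Against BAT, eWAT differed by 1.43 ± 0.22 per length (edgeR adjusted p = 7.97e-06) and 0.41 ± 0.21 without the row length (edgeR adjusted p = 0.0971), where the call was lost. Against iWAT, eWAT differed by 0.62 ± 0.21 (edgeR adjusted p = 0.0208) and -0.40 ± 0.21 (edgeR adjusted p = 0.176) without the row length. Without the eWAT sample 14 the first of these also missed the threshold (edgeR adjusted p = 0.0604). That sample had the most Fgfr2 in eWAT. It also had the highest sums of 5 epididymis markers (Lcn5, Crisp1 and others, 76.1 RPKM) and 6 epithelial markers (Epcam, Krt8 and others, 7.94 RPKM). The eWAT sample 15 had the next highest sums (70.9 and 5.50 RPKM) and the least Fgfr2. The part of epididymal or epithelial cells in the Fgfr2 values was not tested.

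Fgfr3 on chromosome 5 (34064373 to 34079716) was the tested member that was lower in iWAT than in BAT. It had 0.120, 0.137 and 0.251 RPKM in the lowest, median and highest iWAT sample, from 19 to 55 reads. In BAT the values were 0.406, 0.445 and 1.76 RPKM, from 86 to 371 reads, and no iWAT sample reached the lowest BAT sample. iWAT differed from BAT by a log2 fold change of -2.22 ± 0.37 (edgeR adjusted p = 0.000113), a level 4.67 times higher in BAT. It was -1.75 ± 0.21 without the BAT sample 11 (edgeR adjusted p = 8.97e-06), the sample with 1.76 RPKM.

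The eWAT samples had 0.231, 0.493 and 1.39 RPKM of Fgfr3 and overlapped BAT. Their log2 fold change against BAT was -0.33 ± 0.39 (edgeR adjusted p = 0.436), -1.04 ± 0.39 without the row length (edgeR adjusted p = 0.0227) and 0.11 ± 0.32 without the BAT sample 11 (edgeR adjusted p = 0.755). Against iWAT it was 1.79 ± 0.41 (edgeR adjusted p = 0.00115), and 1.08 ± 0.41 without the row length (edgeR adjusted p = 0.0573). In each depot the sample with most Fgfr3 was also the one with the highest sum of 8 endothelial markers (Pecam1, Cdh5 and others, none at 0 reads). That sum was 340 RPKM in the iWAT sample 14, where the depot ranged from 60.7, it was 370 in the eWAT sample 8, where it ranged from 162, and 136 in the BAT sample 11, where it ranged from 55.2. The sum of 6 mural markers (Acta2, Rgs5 and others) was also highest in the iWAT sample 14 (109 RPKM) and the eWAT sample 8 (191 RPKM). Among BAT samples the mural sum was 102 RPKM in the sample 11 and highest in the sample 13 (110 RPKM). The next highest endothelial sum went with the next most Fgfr3 for iWAT only (sample 12, 150 and 0.230 RPKM). The eWAT sample 13 was next by sum (310 and 0.471), but samples 11 (212 and 0.515) and 14 (185 and 0.588) had more Fgfr3. The BAT sample 7 was next by sum (108 and 0.423), but samples 8 (55.2 and 0.466) and 13 (105 and 0.547) had more Fgfr3. Median endothelial sums were 98.2 RPKM for iWAT, 198 for eWAT and 88.9 for BAT, beside Fgfr3 medians of 0.137, 0.493 and 0.445. The part of endothelial or mural cells in the Fgfr3 values was not tested. In BAT sample 11 the row G630022F23Rik, which overlaps the start of Fgfr3 on the other strand, had 38 reads, against 1 to 8 in the other BAT samples. The library kit did not mark strand, so reads in that overlap cannot be told apart.

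Fgfr4 and Kl were at the limit of detection. Fgfr4, a receptor best known from liver, had 1 to 4 reads per iWAT sample, 0 to 9 per eWAT sample and 0 to 4 per BAT sample. Kl, which encodes alpha-klotho, the co-receptor of FGF23 in kidney, had 0 or 1 read per iWAT sample, 0 to 10 per eWAT sample and 0 to 6 per BAT sample. A count of 0 allows up to 3 reads, which is an RPKM of 0.0170 to 0.0256 for Kl and of 0.0236 to 0.0356 for Fgfr4 across the samples. Such limits cover counting error only, as reads were not collapsed to molecules. No difference between depots was detectable for them at this depth.

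Fgfr1 made up most of the receptor message. Its share of the summed RPKM of Fgfr1 to Fgfr4 was 93.6% ± 0.43 (SD, n = 6) in iWAT and 91.6% ± 1.98 in eWAT, whereas BAT had 78.4% ± 6.55. The share was between 93.0% and 94.2% in the iWAT samples and between 65.9% and 84.0% in the BAT samples, which did not overlap. The remainder in BAT was split between Fgfr2 (10.5% ± 2.84) and Fgfr3 (10.8% ± 7.13), whereas in iWAT it was mostly Fgfr2 (5.54% ± 0.51) with little Fgfr3 (0.78% ± 0.39). The BAT sample 11 had 25.1% Fgfr3 and the lowest Fgfr1 share (65.9%). The other BAT samples had 6.54% to 9.86% Fgfr3 and 77.1% to 84.0% Fgfr1. By reads summed over BAT samples, Fgfr2 exceeded Fgfr3 (1264 and 855). The summed level itself was 22.4 ± 2.83 RPKM in iWAT, 31.0 ± 4.37 in eWAT and 5.97 ± 0.73 in BAT (SD, n = 6 each). Shares and sums of eWAT are per length, on the shorter rows of Fgfr1, Fgfr2 and Fgfr3.

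**Figure D2:**
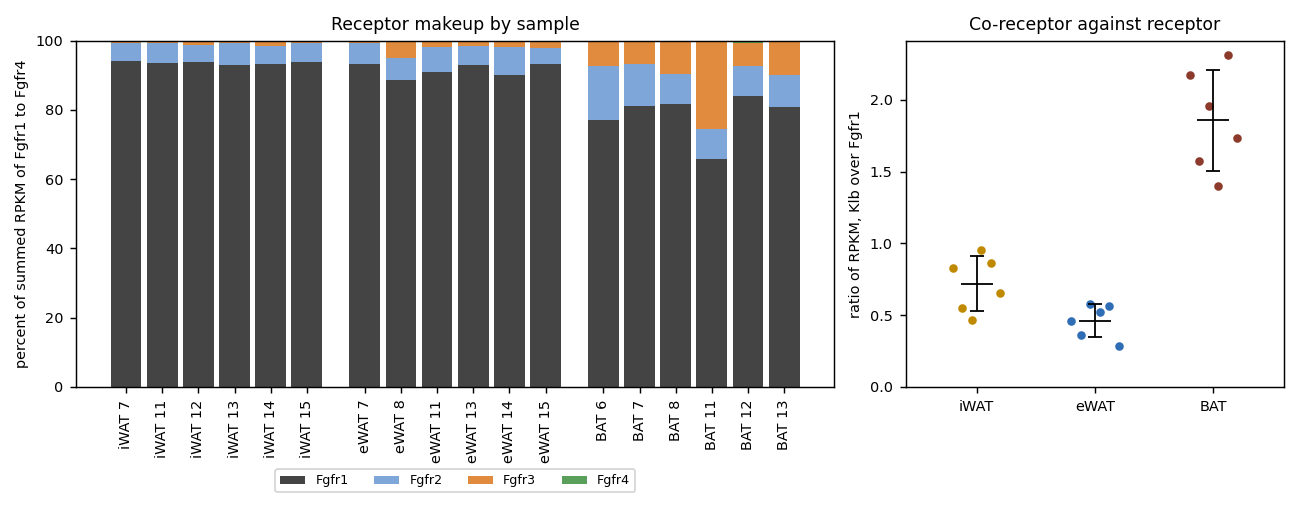
Left, the share (percent) of each of Fgfr1 to Fgfr4 in their summed RPKM, 1 bar per sample; right, the RPKM of Klb divided by that of Fgfr1, where points are samples, horizontal bars means and whiskers the SD. Fgfr1 fills at least 93.0% of each iWAT bar and at most 84.0% of each BAT bar, and the ratio is 1.40 to 2.31 in the BAT samples and at most 0.954 in the white samples.

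Fgfrl1 binds FGFs but lacks the kinase domain of the other receptors. Of the 10 genes it was the one with the highest RPKM in each depot. It lies on chromosome 5 (109123248 to 109135969), and its row was the same in all files. Its level was 72.7, 84.3 and 93.6 RPKM in the lowest, median and highest iWAT sample, 38.8, 68.8 and 82.0 in eWAT, and 17.1, 22.1 and 25.9 in BAT. All white samples were above all BAT samples. Fgfrl1 had a log2 fold change of 1.68 ± 0.09 for iWAT against BAT (edgeR adjusted p = 1.67e-09) and 1.37 ± 0.13 for eWAT against BAT (edgeR adjusted p = 1.73e-08). Of 45151 symbols, 99.1% had a lower mean in iWAT than Fgfrl1 and 97.2% in BAT. Between the white depots it was lower in eWAT by -0.40 ± 0.13 on the log2 scale (edgeR adjusted p = 0.0139), although the samples overlapped. Over the 5733 tested rows that were identical in all files the same difference had an edgeR adjusted p of 0.0554.

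Klb encodes beta-klotho, the partner of FGFR1 at which FGF21 binds, and lies on chromosome 5 (65739625 to 65775847). The lowest, median and highest iWAT sample had 9.26, 14.04 and 20.4 RPKM. The eWAT samples had 6.31, 14.8 and 18.2 in the same order, and the BAT samples 6.49, 8.07 and 11.8. The depots overlapped. For Klb, iWAT exceeded BAT by 0.52 ± 0.20 on the log2 scale (edgeR adjusted p = 0.0326), and it stayed past the threshold in 6 of 12 fits that left out a single sample. The other 6 were those without iWAT 7 or 13 or BAT 7, 8, 11 or 13, and the adjusted p reached 0.086. The difference of eWAT from BAT was 0.40 ± 0.24 (edgeR adjusted p = 0.136), and without the eWAT sample 15 it was 0.54 (edgeR adjusted p = 0.0308). Leaving out the row length gave 0.17 ± 0.24 (edgeR adjusted p = 0.540), and 0.31 without the eWAT sample 15 as well (edgeR adjusted p = 0.213), so neither value passed. That of eWAT from iWAT was -0.22 ± 0.24 with the row length (edgeR adjusted p = 0.486) and -0.45 ± 0.24 without it (edgeR adjusted p = 0.185).

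Relative to Fgfr1, Klb was highest in BAT. The ratio of their RPKM was between 0.465 and 0.954 in the iWAT samples and between 1.40 and 2.31 in the BAT samples, with means of 0.719 ± 0.192 and 1.86 ± 0.352 (SD, n = 6 each). In eWAT it was between 0.286 and 0.575, on an Fgfr1 row that was shorter than the merged one. The ratio followed from a difference of 1.90 in Fgfr1 and of 0.52 in Klb on the log2 scale between iWAT and BAT.

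Of the 8 genes tested, Fgf10 showed the largest difference from BAT in both white depots. It is on chromosome 13 (119458598 to 119581380). It had 2289 to 4364 reads per iWAT sample and 52 to 153 per BAT sample. The level was 17.5, 21.8 and 26.8 RPKM in the lowest, median and highest iWAT sample, 6.70, 16.8 and 23.2 in eWAT and 0.337, 0.559 and 0.955 in BAT. The log2 fold change was 4.83 ± 0.25 for iWAT against BAT (edgeR adjusted p = 8.86e-10), which is 28.5-fold. eWAT exceeded BAT by 4.47 ± 0.29 per length (edgeR adjusted p = 5.38e-11) and 4.32 ± 0.29 without the row length (edgeR adjusted p = 1.64e-10). For eWAT against iWAT it was -0.45 ± 0.24 (edgeR adjusted p = 0.133), and -0.60 ± 0.24 without the row length (edgeR adjusted p = 0.0793).

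FGF10 is also made by fibroblasts and preadipocytes, so their markers were read beside it. The sum of 8 such markers, none at 0 reads in any sample, was 60.7 to 100.2 RPKM in iWAT, 79.7 to 183 in eWAT and 29.3 to 43.1 in BAT. The collagens Col1a1 and Col3a1 carried most of the iWAT sum, with medians of 21.7 and 41.5 RPKM in iWAT and 5.26 and 13.7 in BAT. Cd34 was at 2.59 and 2.33 in the same order. Pdgfra, their defining marker, was at 0.0507 to 0.264 RPKM in iWAT and 0.892 to 1.32 in BAT. The medians of Pi16 (0.632 and 2.21), Dcn (3.47 and 13.4), Mfap5 (0.135 and 0.520) and Dpp4 (0.0562 and 0.0808) were also lower in iWAT than in BAT. This did not hold for most of the markers in eWAT, per length. The eWAT medians of Dcn (47.7), Cd34 (12.96), Mfap5 (1.04) and Dpp4 (0.489) were above those of BAT. Those of Col1a1 (13.4) and Col3a1 (48.8) were above BAT as well, whereas Pdgfra (0.496) and Pi16 (0.238) were below it. Among eWAT samples, the sample 15 had the highest sum of these markers (183 RPKM) and the least Fgf10 (6.70 RPKM). That sample also had the macrophage sum of 2240 RPKM and was lowest in Fgfr1, Fgfr2, Fgfrl1, Klb and Fgf1. The part of fibroblasts and preadipocytes in the Fgf10 values was not tested.

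Fgf1 had a median of 7.76 RPKM in iWAT (3.37 to 9.36), 16.7 in eWAT (12.97 to 19.0) and 4.30 in BAT (2.71 to 5.62). All eWAT samples were above all iWAT and BAT samples, per length and per read. On the log2 scale eWAT exceeded iWAT by 1.14 ± 0.20 with the row length (edgeR adjusted p = 0.000101), which is 2.20-fold. Without the row length it was 0.83 ± 0.20 (edgeR adjusted p = 0.00491), which is 1.78-fold. eWAT exceeded BAT by 1.76 ± 0.21 with the row length (edgeR adjusted p = 2.85e-07) and 1.45 ± 0.20 without it (edgeR adjusted p = 4.33e-06). For iWAT against BAT it was 0.52 ± 0.22 (edgeR adjusted p = 0.0454), with overlapping samples, and 9 of 12 fits that left out a single sample missed the threshold. These were the fits without iWAT 12, 13, 14 or 15 or BAT 6, 7, 8, 11 or 12, and the adjusted p reached 0.117. Fgf1 lies inside Arhgap26 on the other strand, so reads of unspliced Arhgap26 RNA there cannot be told apart from Fgf1.

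Fgf21, the endocrine ligand that liver secretes on fasting and brown fat on cold exposure, is on chromosome 7 (52869260 to 52870860). It had 3 to 42 reads per iWAT sample, 8 to 24 per eWAT sample and 6 to 20 per BAT sample. The level was 0.138, 1.17 and 1.38 RPKM in the lowest, median and highest iWAT sample, 0.249, 0.614 and 0.838 in eWAT and 0.185, 0.336 and 0.692 in BAT. The depots overlapped. iWAT exceeded BAT by 1.09 ± 0.45 on the log2 scale (edgeR adjusted p = 0.045), and 8 of 12 fits without a single sample missed the threshold. These were the fits without iWAT 12, 13, 14 or 15 or BAT 6, 7, 12 or 13, and the adjusted p reached 0.104. Neither eWAT against BAT (0.40 ± 0.45, edgeR adjusted p = 0.422) nor eWAT against iWAT (-0.78 ± 0.43, edgeR adjusted p = 0.142) passed. Without the iWAT sample 7, which had 3 reads, the latter had an adjusted p of 0.0319.

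**Figure D3:**
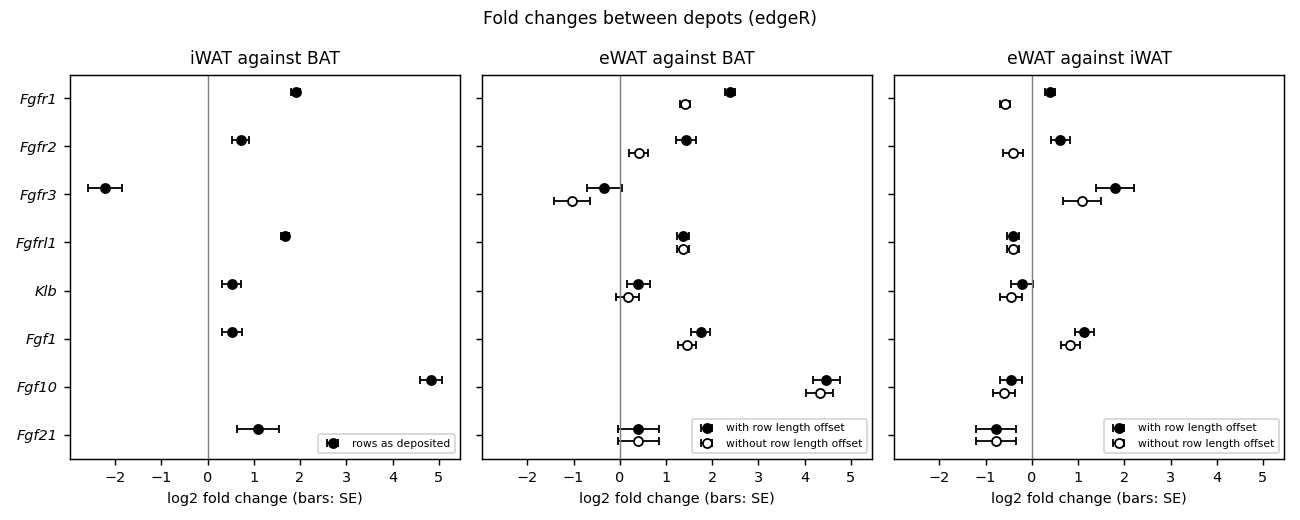
Log2 fold change (horizontal axes, edgeR, bars are SE, 6 samples per depot) of the 8 tested genes in the 3 comparisons; filled points include the row length where eWAT enters and open points leave it out. Fgf10 is at 4.83 for iWAT and 4.47 for eWAT against BAT, and Fgfr1 and Fgfr2 change sign between filled and open points for eWAT against iWAT.

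Between eWAT and BAT 5 of the 8 members tested passed with the row length, all higher in eWAT (Fgfr1, Fgfr2, Fgfrl1, Fgf1 and Fgf10), where 77.8% of all rows passed, 56.5% higher and 21.3% lower. Without the row length 5 passed, 4 of them higher and Fgfr3 lower, where 71.1% of all rows passed, 40.1% higher and 31% lower. Between eWAT and iWAT 5 passed with the row length, 4 higher in eWAT (Fgfr1, Fgfr2, Fgfr3 and Fgf1) and Fgfrl1 lower, where 50.7% of all rows passed, 44.4% higher and 6.34% lower. Without the row length 3 passed, with Fgf1 higher and Fgfr1 and Fgfrl1 lower, where 25.8% of all rows passed, 10.6% higher and 15.2% lower. Fgf1 had the same call in eWAT against iWAT with and without the row length. The row of Fgfrl1 had the same length in all files, so its fold change could not differ between them. The comparisons share samples, and their calls are not independent of one another.

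In iWAT 3 of the 10 members had all samples above all BAT samples, as 32.1% of 17422 rows did, and 1 had all samples below, as 16.2% of rows did. In eWAT 5 of the 8 had all samples above all BAT samples per length, as 50.8% of rows did, and 4 of the 8 per read, as 34.5% of rows did.

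The order of the genes by level was taken within each depot. In iWAT the mean RPKM fell from Fgfrl1 (83.8 ± 8.47) to Fgf10 (21.9 ± 4.003), Fgfr1 (20.9 ± 2.68), Klb (14.9 ± 4.002), Fgf1 (7.01 ± 2.11), Fgfr2 (1.24 ± 0.23), Fgf21 (0.950 ± 0.511) and Fgfr3 (0.166 ± 0.058). The samples of Fgf10, Fgfr1 and Klb overlapped, as did those of Klb and Fgf1, of Fgfr2 and Fgf21, and of Fgf21 and Fgfr3. In BAT the order was Fgfrl1 (21.9 ± 3.29), Klb (8.65 ± 1.86), Fgfr1 (4.66 ± 0.45) and Fgf1 (4.06 ± 1.06), then Fgfr3 (0.669 ± 0.537), Fgf10 (0.634 ± 0.237), Fgfr2 (0.628 ± 0.181) and Fgf21 (0.378 ± 0.202). The samples of Fgfr1 and Fgf1 overlapped, and so did those of the last 4. The mean of Fgfr3 was raised by the BAT sample 11 (1.76 RPKM). Its BAT median was 0.445 RPKM, below that of Fgf10 (0.559) and Fgfr2 (0.566). By mean RPKM, Fgf10 and Fgfr1 stood above Klb in iWAT and below it in BAT. The mean of Fgfr3 stood below those of Fgf10, Fgfr2 and Fgf21 in iWAT and beside them in BAT. These orders are per length, on merged rows of unequal length (Fgfr1 9815, Klb 4069 and Fgf10 5059 bases). By reads summed over the 6 BAT samples, Fgfr1 stood above Klb (8580 and 6608), whereas Fgf10 stayed below Klb (596). In iWAT the sums were 32970 for Fgfr1, 18076 for Fgf10 and 9617 for Klb. Fgfr3 stood above Fgf21 there by reads (194 and 152). In eWAT the order by mean RPKM, on single transcripts, was Fgfrl1 (65.8 ± 14.9), Fgfr1 (28.4 ± 3.97), Fgf10 (16.6 ± 5.56), Fgf1 (16.0 ± 2.49), Klb (13.4 ± 4.59), Fgfr2 (1.98 ± 0.61), Fgfr3 (0.607 ± 0.402) and Fgf21 (0.576 ± 0.237). The errors are SD over 6 samples. Among the eWAT samples the sample 15 was lowest in Fgfr1, Fgfr2, Fgfrl1, Klb, Fgf1 and Fgf10.

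The genes whose pattern over the 18 samples was nearest to a member were sought among 13869 symbols, by the root mean square difference of log2(RPKM + 0.1) around each gene's mean. The value is small where 2 genes move together in size and direction. For Fgfr1 the nearest were Lama4 (0.14), Ctso (0.17) and Plcb1 (0.17), where the median over all symbols was 0.95. For Fgfrl1 they were Pxmp2 (0.17), XR_106283 (0.17) and Gm10687 (0.18), where the median was 0.85. For Fgf10 they were LOC100503263 (0.30), Cmklr1 (0.31) and Ccdc80 (0.32), where the median was 2.07. Ccdc80 had a mean of 337 RPKM in iWAT and 10.1 in BAT, and Cmklr1, the receptor of chemerin, had 43.2 and 1.40. For Klb they were Elp4 (0.27), Zfp438 (0.27) and Gng7 (0.27) against a median of 0.72, for Fgf1 Exoc6 (0.24), Cdc23 (0.26) and Pls3 (0.27) against 0.75, and for Fgfr2 Sik2 (0.21), Acadsb (0.24) and Mettl7a1 (0.24) against 0.66. The points share libraries and the depot difference, and no test was made. Since eWAT values are per length on single transcripts, part of the pattern of Fgfr1 and Fgfr2 between eWAT and the other depots follows the row length.

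Of 19 other FGF genes, not all of which encode ligands, 7 were tested between iWAT and BAT. Of these, 3 were higher in iWAT and 2 lower, beside 34% and 33.6% of all rows. Fgf13, an FGF homologous factor that acts inside the cell, had a mean of 11.8 ± 4.51 RPKM in iWAT, 27.4 ± 7.91 in eWAT and 0.157 ± 0.094 in BAT (SD, n = 6 each), with a log2 fold change of 5.97 ± 0.41 for iWAT against BAT (edgeR adjusted p = 1.83e-08). It had 567 to 1737 reads per iWAT sample and 4 to 36 per BAT sample. The iWAT samples alone were enough for Fgf13 to meet the read filter, and the size of its difference rests on few BAT reads. Fgf2, a heparin-binding growth factor, was higher in iWAT by 1.31 ± 0.21 (edgeR adjusted p = 8.17e-05), and Fgf11 by 0.89 ± 0.14 (edgeR adjusted p = 5.26e-05). Fgf16, a ligand known from brown fat, was read at 0.201 ± 0.087 RPKM in BAT, from 10 to 38 reads. It had at most 1 read per iWAT sample and 2 per eWAT sample. Fgf16 met the filter of 10 reads in 6 samples through the BAT samples alone, so its call as lower was set by the filter. Fgf14 was lower in iWAT by -0.92 ± 0.24 (edgeR adjusted p = 0.0037). The median log2 fold change of the 7, Fgf16 among them, was -0.58, beside 0.01 for all rows.

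Among 19 receptor adaptors and members of the Ras-ERK relay, all tested, 10 were higher in iWAT than in BAT, 4 lower and 5 did not pass, with a median of 0.19. Of all rows 34% were higher and 33.6% lower. Without TMM factors 14 were higher and 2 lower, beside 46.2% and 24% of all rows. Cbl, a ubiquitin ligase of activated receptors, was higher by 1.53 ± 0.15 (edgeR adjusted p = 6.91e-07) and Gab1, a docking protein, by 1.17 ± 0.10 (edgeR adjusted p = 1.20e-07). The adaptor Grb2 was higher by 1.08 ± 0.07 (edgeR adjusted p = 1.07e-08), the phosphatase Ptpn11 by 0.42 ± 0.09 (edgeR adjusted p = 0.000577) and the kinase Mapk3 by 0.58 ± 0.12 (edgeR adjusted p = 0.000573). Map2k1 differed by -0.06 ± 0.06 (edgeR adjusted p = 0.424), and by 0.21 without TMM factors (edgeR adjusted p = 0.00853).

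The feedback inhibitors and ERK-responsive targets comprised 17 genes, of which 14 were tested. Between iWAT and BAT 5 were higher in iWAT, 3 lower and 6 did not pass, with a median of 0.15, where 34% of all rows were higher and 33.6% lower. The sprouty genes Spry2 and Spry4, inhibitors of receptor tyrosine kinase signalling, were higher in iWAT by 2.06 ± 0.26 (edgeR adjusted p = 6.95e-06) and 1.66 ± 0.18 (edgeR adjusted p = 1.37e-06). Dusp5, a nuclear ERK phosphatase, was higher by 3.54 ± 0.42 (edgeR adjusted p = 4.84e-06) and Flrt3 by 3.68 ± 0.21 (edgeR adjusted p = 2.45e-09). The ERK phosphatases Dusp6 (0.02 ± 0.29, edgeR adjusted p = 0.952) and Dusp4 (-0.21 ± 0.29, edgeR adjusted p = 0.539) did not pass, and the sign of Dusp4 turned without TMM factors. Without these factors 5 of the 14 were higher in iWAT and 1 lower, beside 46.2% and 24% of all rows. For eWAT against BAT 11 of the 14 were higher with the row length and 9 without it, and the other genes did not pass, with medians of 1.56 and 1.27, beside 0.59 and 0.15 for all rows, of which 56.5% and 40.1% were higher.

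Of 22 heparan sulfate proteoglycans, their enzymes and FGF carriers, 19 were tested, and 12 were higher in iWAT than in BAT, 4 lower and 3 did not pass, with a median of 0.68. Among all rows 34% were higher and 33.6% lower. Without TMM factors 12 were higher and 2 lower, beside 46.2% and 24% of all rows. The glypican Gpc1 was higher by 3.04 ± 0.36 (edgeR adjusted p = 4.31e-06), and the syndecan Sdc4 by 2.08 ± 0.42 (edgeR adjusted p = 0.000594). Sulf2, which removes sulfate from heparan sulfate, was higher by 2.01 ± 0.08 (edgeR adjusted p = 9.71e-11). Gpc4 and perlecan (Hspg2) were higher by 1.48 ± 0.10 (edgeR adjusted p = 1.39e-08) and 1.30 ± 0.17 (edgeR adjusted p = 1.04e-05). Gpc3 was lower by -2.54 ± 0.37 (edgeR adjusted p = 3.34e-05). For eWAT against BAT 15 of the 19 were higher and 2 lower, with the row length (56.5% and 21.3% of all rows) and without it (40.1% and 31%).

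The last list held 7 genes, klotho relatives and partners of FGF21 and FGF1, of which 5 were higher in iWAT than in BAT and 2 lower, with a median of 0.82, where 34% of all rows were higher and 33.6% lower. Adamts1, a secreted protease, was higher by 4.31 ± 0.37 (edgeR adjusted p = 1.58e-07) and Adipoq, which FGF21 is known to raise, by 2.35 ± 0.12 (edgeR adjusted p = 1.15e-09). Ppara, the nuclear receptor that drives Fgf21 in liver, was lower by -4.07 ± 0.16 (edgeR adjusted p = 6.86e-11), with 45.7 ± 9.03 RPKM in BAT and 3.26 ± 0.64 in iWAT. Pparg, which drives Fgf1 in fat, was higher by 0.23 ± 0.09 (edgeR adjusted p = 0.0382). Without TMM factors all rows shifted upward by more than this difference.

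**Figure D4:**
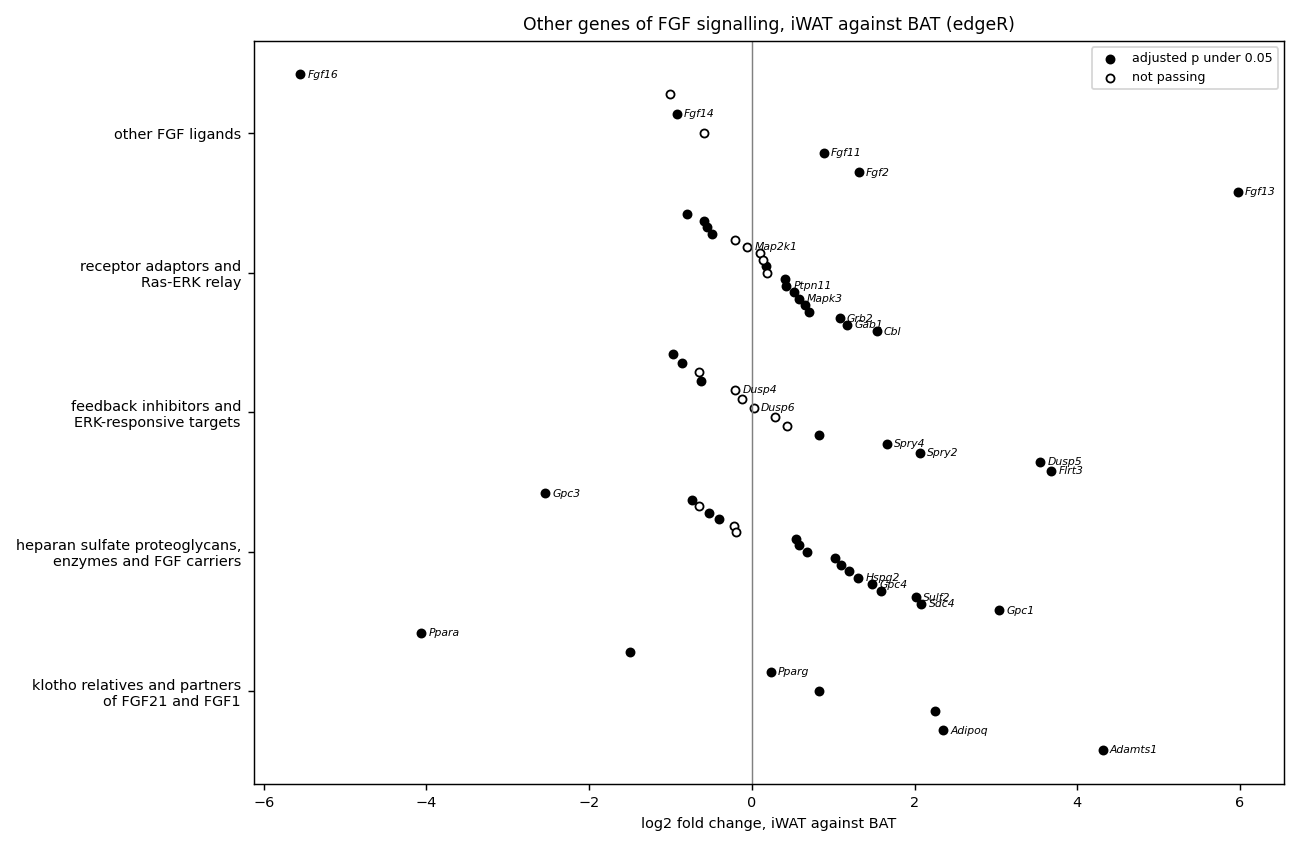
Log2 fold change of iWAT against BAT (horizontal axis, edgeR, 6 samples per depot) of the tested genes of 5 lists around FGF signalling; filled points passed an adjusted p of 0.05, open points did not, and the named genes are those given in the text. Fgf13 at 5.97, with 4 to 36 reads per BAT sample, stands at the right end. Of 19 heparan sulfate genes 12 passed to the right of 0. Fgf16, with at most 1 read per iWAT sample, is at the left end and met the read filter only through BAT. The list labelled other FGF ligands holds other FGF genes, among them Fgf13, which acts inside the cell.

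Between eWAT and iWAT the list counts moved with the row length, as did those of all rows, of which 44.4% were higher and 6.34% lower with it and 10.6% and 15.2% without it. With it 15 of 19 adaptor and relay genes were higher in eWAT and the other 4 did not pass, whereas without it 3 were lower and the other 16 did not pass. For the heparan sulfate genes 12 were higher with it, and 6 were higher and 1 lower without it. For the other FGF genes 3 were higher and 1 lower with it, and 1 each without it. The feedback and ERK-responsive genes had 10 higher and 1 lower with it, and 6 higher and 1 lower without it. Dusp5 was higher in eWAT than in iWAT by 2.14 (edgeR adjusted p = 0.00236) and Spry2 lower by -0.82 (edgeR adjusted p = 0.00525). Leaving out the row length left both values as they were, since the lengths of these rows were nearly the same in all files.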

How the data were processed

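RNA was sequenced on an Illumina instrument from libraries of the NEBNext Ultra RNA kit, and the Genomatix Genome Analyzer was used with mm9. The submitters' processing notes also name HISAT2 2.1.0 and cutadapt 1.16. How reads were assigned to rows is not given in the sources used here. The authors deposited raw read counts per row. The RPKM that the authors deposited beside them came out as the count over row length and over 1 read total for each sample, and this total served as library size. The sum over eWAT rows counts reads repeatedly and was not used.

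Members were matched by symbol, with the merged row in iWAT and BAT and the most-read transcript row in eWAT. A second Klb row of 777 bases was not used. Depots were compared with edgeR 4.0.16 in R 4.3.3 (glmQLFit, glmQLFTest) on rows where 6 samples or more had 10 reads or more, with Benjamini-Hochberg adjustment over all rows. iWAT and BAT were fitted on merged rows. eWAT was compared in a fit of 18 samples with 1 row per symbol, an offset for row length and TMM factors from the rows identical in both kinds of file, and again without that offset. The SE was derived from the F statistic. The code was tested on simulated counts. Levels are mean ± SD of the deposited RPKM. Named genes were all members, the 3 nearest symbols of each member with a mean RPKM of at least 1, and in each list the 4 with most RPKM and the 2 with the largest difference between iWAT and BAT. Members, lists and markers were chosen with earlier results of these data known. Alternatives used DESeq2 1.42.0, limma 3.58.1 on log2(RPKM + 0.1) or log2(RPKM + 1), other filters, rows and samples.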

Additional observations from a re-analysis of the deposited data

Results flagged for a closer look

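Among 25 sets of 6 samples (a member in a depot), 2 held a sample that lay far from the other 5 by Dixon's criterion, where chance alone would give about 1.25. Both were Fgfr3. In eWAT the sample 8 had 1.39 RPKM and the others 0.231 to 0.588. In BAT the sample 11 had 1.76 RPKM and the others 0.406 to 0.547. No test of a cause was made.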

How the results depend on the processing

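Of 550 log2 fold changes of members recomputed under an alternative, 494 kept their direction and their side of the threshold, and 5 turned direction. For eWAT against iWAT, leaving out the row length turned Fgfr1 to -0.58 and Fgfr2 to -0.40, and doing so without the eWAT sample 15 gave -0.53 and -0.29, as the longer merged rows were then no longer corrected for. For eWAT against BAT, Fgfr3 was 0.11 without the BAT sample 11, and between -0.73 and 0.11 over the fits that left out 1 sample. Between iWAT and BAT, where 8 members passed, 4 passed under the stricter filter (10 reads in each sample of a depot and a mean RPKM of 1), which left 6 members to test, and 5 without the BAT samples 11 and 12. Fits that left out 1 sample called 5 to 8 members and 12307 to 13291 rows. For eWAT against BAT they called 5 to 6 members and 13459 to 14132 rows, and for eWAT against iWAT 4 to 6 members and 8821 to 9540 rows. On rows identical in both kinds of file 3888 rows and 1 member passed for eWAT against BAT, and 737 rows and 0 members for eWAT against iWAT, with 5733 rows and 2 members tested. Of these 2, Fgfrl1 had an unadjusted edgeR p of 0.00738. Without the row length 4743 rows and 3 members passed for eWAT against iWAT, and 4279 rows and 3 members without the eWAT sample 15 as well. Fits on pairs of depots, those without the eWAT sample 15 beside no row length, and the one without the BAT samples 11 and 12 were added after the data were seen.

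Sample titles share numbers between depots, but the labels do not say that a number is a mouse, and samples with the same number did not deviate together. Their mean correlation was 0.03 over 4 pairs of iWAT and BAT, -0.04 over 4 pairs of eWAT and BAT and -0.04 over 5 pairs of eWAT and iWAT. With the number as a replicate block, 5 members passed for iWAT against BAT (Klb, Fgf1 and Fgf21 did not), 6 for eWAT against BAT (with Klb) and 2 for eWAT against iWAT (Fgfr3 and Fgf1). Depth limits Fgf21, Fgfr3, Fgfr4 and Kl.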
